A study of Mus musculus with 28 samples.

Results

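Immediate early genes are transcribed within minutes of a stimulus from transcription factors that are already present, and in neurons synaptic activity and calcium entry are the usual stimulus. In unstimulated rodent brain they are known for activity-linked expression in the cerebral cortex, hippocampus and striatum. The 10 genes described here were chosen by name, with earlier results of these data known. Fos, Fosb and Junb encode subunits of the dimeric transcription factor AP-1. Egr1, Egr2 and Egr4 encode zinc finger transcription factors. Npas4 encodes a basic helix-loop-helix factor induced by calcium, and Nr4a1 an orphan nuclear receptor. Arc encodes a synaptic protein that acts in the endocytosis of AMPA receptors, and Ier2 a small nuclear protein. The rule takes the array probe that maps to each symbol, or the probe with the highest mean where a gene has several, and each of the 10 genes had 1 probe among the 55681 on the array. All 10 were among the 32364 probes that were tested, the probes with a signal well over background somewhere in each of the 3 planes.

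Each of 3 mice (C57BL/6J males, 3 weeks old) gave 1 brain, which was cut in parallel sections along 1 plane, and successive sections were pooled into fractions. Mouse 1 gave 12 coronal fractions, and the other animals gave 6 horizontal and 10 sagittal fractions. No treatment or allele is named, so each series shows untreated tissue along 1 axis, whatever the animal had experienced before it was killed. The labels name 100 sections of 5 micron for a fraction. The published methods differ from the labels on the thickness, so positions are fraction numbers. Coronal fraction 12 is labelled as pooled with the fraction after it. Each fraction was measured on 1 array, so no position has a replicate, and plane and mouse are the same thing in this design. A level is the background-subtracted signal of a probe on the log2 scale relative to the 75th percentile of its array, so a level of 0 is that percentile and negative levels lie below it. Levels are compared between fractions of 1 probe and never between genes. In bulk fractions, fewer cells of a type and less RNA per cell cannot be told apart.

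The labels do not name the ends of the axes, so marker lists were used to place them. In the coronal series the mean of the 5 hindbrain markers was highest in fraction 1, of the 5 cerebellum markers in fraction 2 and of the 4 olfactory bulb markers in fraction 12. The mean of the 6 cerebral cortex markers was highest in coronal fraction 9, horizontal fraction 1 and sagittal fraction 10. The 6 hypothalamus markers were highest in horizontal fraction 6 and sagittal fraction 5. Neuron markers (Snap25, Syt1, Rbfox3, Nefl) had a mean level of 5.71 to 6.63 over the coronal fractions. Sagittal fraction 1 was the dimmest array, with a 75th percentile of 135 against up to 574, and an array had 24822 to 34240 probes well above background.

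Transcription of many immediate early genes is known to be driven through cyclic AMP response elements, bound by CREB, and CArG boxes, bound by serum response factor. Promoter windows of 300 bases, 250 before the start and 50 after it, were taken from a RefSeq table (GRCm38.p6) and searched for 7 of the 10 genes, Fos, Fosb, Junb, Egr2, Egr4, Npas4 and Nr4a1. Egr1, Arc and Ier2 were not searched. The core TGACG, searched on both strands, was present in a window of 7 of 7 genes, against 20.8% of all 32851 windows in the table. Egr2 had 5 windows and the other 6 genes 1 each. The full element TGACGTCA, which contains the core, was in 0 of the 7, against 1.79% of windows. A CArG box was found for Egr2 alone (1.63% of windows), and the AP-1 motif TGANTCA for none (7.81%). The EGR motif GCGNGGGCG was found for Fosb and Nr4a1 (5.55%), and TATAAA for Fos and Junb (13.6%), in Junb beginning at the start site. A letter match is no evidence of binding, and elements more than 250 bases before the start were not searched for. The windows of Fos, Egr2, Npas4 and Nr4a1 are shown because these members differed in how far their levels ranged along the coronal axis and all carried cores. Each is written 5′ to 3′ on the gene's strand, and capitals mark TGACG on either strand and, in Egr2, the CArG box. They lie at chr12:85473640-85473939 (plus strand, Fos), chr10:67537619-67537918 (plus strand, Egr2), chr19:4989922-4990221 (minus strand, Npas4) and chr15:101266596-101266895 (plus strand, Nr4a1).
Fos: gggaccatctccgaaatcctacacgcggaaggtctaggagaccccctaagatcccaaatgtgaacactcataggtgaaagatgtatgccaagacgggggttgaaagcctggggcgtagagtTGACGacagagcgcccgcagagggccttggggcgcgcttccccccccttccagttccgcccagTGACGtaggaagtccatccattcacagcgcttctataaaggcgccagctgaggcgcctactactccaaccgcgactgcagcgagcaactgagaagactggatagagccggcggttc
Egr2: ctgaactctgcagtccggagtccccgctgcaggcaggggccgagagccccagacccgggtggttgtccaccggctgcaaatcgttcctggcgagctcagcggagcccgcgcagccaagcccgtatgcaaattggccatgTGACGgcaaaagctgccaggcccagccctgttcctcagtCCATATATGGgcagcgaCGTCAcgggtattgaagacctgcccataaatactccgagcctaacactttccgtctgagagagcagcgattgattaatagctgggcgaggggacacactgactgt
Npas4: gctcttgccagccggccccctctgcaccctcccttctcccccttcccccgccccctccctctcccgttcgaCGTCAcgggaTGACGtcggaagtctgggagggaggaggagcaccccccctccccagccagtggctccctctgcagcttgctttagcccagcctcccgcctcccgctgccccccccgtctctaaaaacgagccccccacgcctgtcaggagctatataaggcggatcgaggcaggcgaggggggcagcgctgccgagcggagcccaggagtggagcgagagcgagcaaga
Nr4a1: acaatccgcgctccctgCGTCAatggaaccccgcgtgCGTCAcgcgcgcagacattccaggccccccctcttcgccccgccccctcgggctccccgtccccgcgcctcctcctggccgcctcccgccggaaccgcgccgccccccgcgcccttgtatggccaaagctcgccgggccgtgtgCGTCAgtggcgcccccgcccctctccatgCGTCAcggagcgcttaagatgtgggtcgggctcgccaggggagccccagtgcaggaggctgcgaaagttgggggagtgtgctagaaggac
In the Fos window the cores began 129 and 66 bases before the start. In Egr2 they began 111 and 55 bases before it, on either side of the CArG box at 72. The Npas4 window held 2, at 179 and 169 bases before the start, and the Nr4a1 window 4.

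Along the coronal axis, 8 of the 10 genes (all but Fos and Ier2) were lower in fractions 1, 2 and 3, which held the highest hindbrain and cerebellum markers, than in any of fractions 4 to 12. That pattern was seen in 6.08% of tested probes. Ier2 was the reverse, higher in each of fractions 1 to 3 than in any later fraction (6.86% of probes), and Fos varied little. For Ier2 the split was narrow, with -2.02 in fraction 3 against -2.07 in fraction 11. The split after fraction 3 was chosen after the values were seen and is a description. A smooth curve over fraction number was fitted to each probe with limma and tested against a constant level, with Benjamini-Hochberg adjustment over all tested probes. By this test 9 of the 10 genes changed with position (all but Fos), where 33.7% of all tested probes did. For 8 of these 9 the fitted curve was lowest in fraction 1, as for 2999 of the 10910 called probes (9.27% of all tested probes). The median observed range of the 10 genes, highest minus lowest fraction, was 2.99 log2, against 1.38 over all tested probes. Fractions 1 and 2, fractions 3 to 10 and fractions 11 and 12 were on 3 different slides. Within the slide of fractions 3 to 10 the test called 8 of the 10 (12.9% of probes), and with slide as an added term 2, Egr4 and Npas4 (0.745% of probes).

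**Figure D1:**
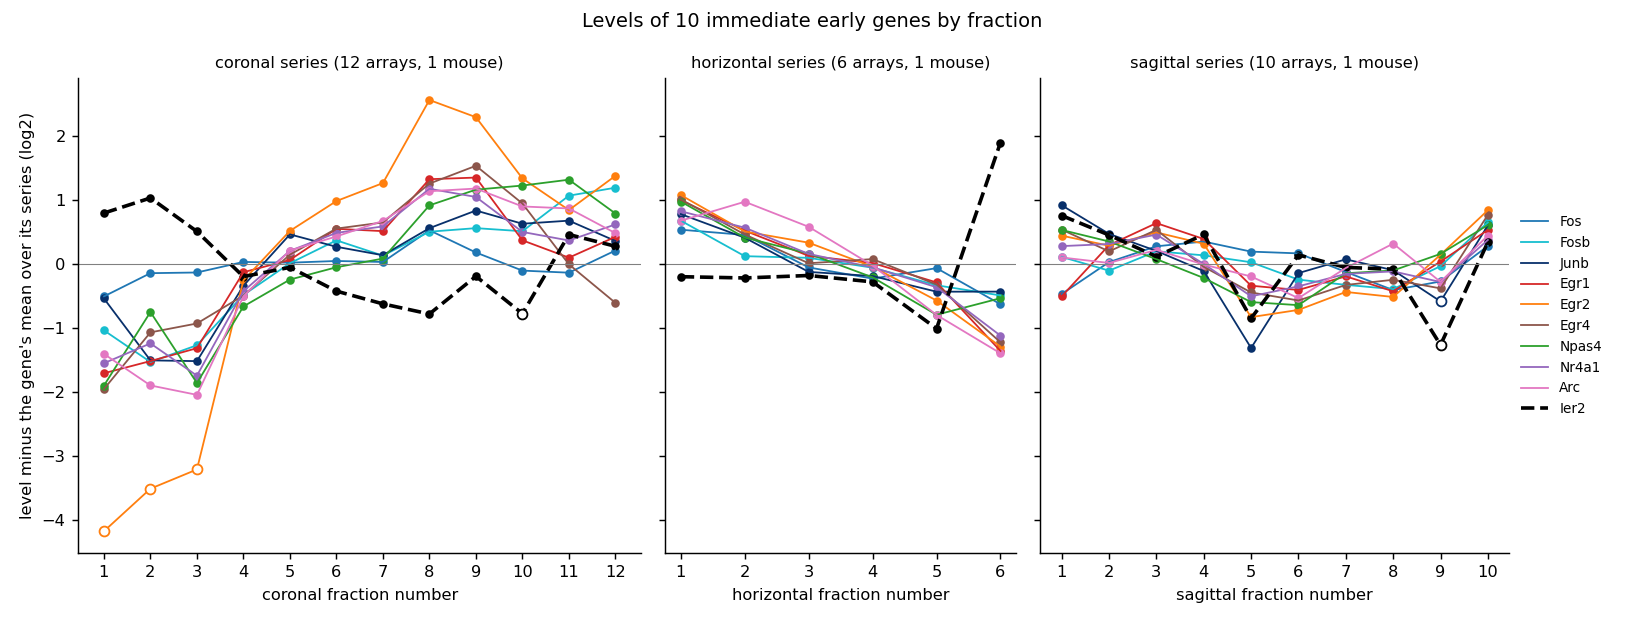
Level of each gene minus its own mean over the series (log2, vertical axis) by fraction number (horizontal axis), 1 line per gene and 1 point per array; open points were not well above background. In the coronal series 8 genes lie lowest in fractions 1 to 3 while Ier2 (dashed) lies high, and in the horizontal series 9 genes lie higher in fractions 1 and 2 than in fractions 5 and 6 while Ier2 is highest in fraction 6.

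Among the AP-1 genes, Fos (probe A_52_P262219) had the smallest range. Its level over the 12 coronal fractions was -0.29 at the lowest (fraction 1), 0.24 at the median and 0.74 at the highest (fraction 8), a 2.05-fold range. Only fraction 8 stood clearly above the rest, 0.32 log2 over the next fraction, and the trend did not pass the test (adjusted p = 0.175). Fos is the one member printed in 10 spots on each array, and the SD of its spots was 0.0433 to 0.0980 log2. That SD is within an array and does not cover the spread between arrays. Fosb (probe A_55_P2113051) had -2.49 at the lowest (fraction 2), -0.71 at the median and 0.23 at the highest (fraction 12), a 6.61-fold range with an adjusted p of 0.00116. Its 2 highest fractions were 11 and 12, at the end where the olfactory bulb markers were highest, and these differed by 0.12, within the residual SD of its curve (0.33). Junb (probe A_55_P2011106) ranged from -4.22 (fraction 3) through a median of -2.38 to -1.86 (fraction 9), 5.11-fold, with an adjusted p of 0.0162. Junb was lower in fractions 2 and 3 than in fraction 1.

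Of the Egr genes, Egr2 and Egr4 spanned the widest coronal ranges of the 10 members. Egr2 (probe A_55_P2033362) was not well above background in fractions 1, 2 and 3, had a median of -1.04 and was highest in fraction 8 at 0.61. Against the lowest signal well above background in fraction 1 (-4.11), that is at least 26.4-fold higher, and the adjusted p was 0.000255. Only bounds exist for the first 3 fractions, and all 9 others were well above background. Egr4 (probe A_51_P270426) went from 0.48 in fraction 1 through a median of 2.51 to 3.97 in fraction 9, 11.2-fold, with an adjusted p of 0.000196. It was the member that fell furthest again toward the end, to 1.83 in fraction 12. Egr1 (probe A_51_P367866), widely used as a marker of neuronal activity, had 1.72 at the lowest (fraction 1), 3.66 at the median and 4.78 at the highest (fraction 9), 8.34-fold, adjusted p = 0.000960. Its fractions 8 and 9 differed by 0.03, within the residual SD of its curve (0.36).

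Npas4, Nr4a1 and Arc were likewise lowest in one of fractions 1 to 3. Npas4 (probe A_55_P1975215) had -1.30 at the lowest (fraction 1), 0.62 at the median and 1.92 at the highest (fraction 11), 9.31-fold, adjusted p = 0.000937. Npas4 was nearly as high in fraction 10, 0.09 log2 lower, within the residual SD of its curve (0.41). Nr4a1 (probe A_51_P239654) had 2.04 at the lowest (fraction 3), 4.21 at the median and 4.96 at the highest (fraction 8), 7.58-fold, adjusted p = 0.00134. Arc (probe A_55_P2021810) had 1.49 at the lowest (fraction 3), 3.99 at the median and 4.72 at the highest (fraction 9), 9.35-fold, adjusted p = 0.000994. Both were low in fractions 1 to 3 and at 4.02 or higher from fraction 8 on.

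Ier2 (probe A_55_P2163028) was the exception. Its coronal level was -1.50 at the highest (fraction 2), -2.66 at the median and -3.31 at the lowest (fraction 8), a 3.51-fold range with an adjusted p of 0.00996. It was called with a fitted curve highest in fraction 1, as were 2997 of the 10910 called probes (9.26% of all tested probes). In fraction 10 it was not well above background, and its lowest fraction was 10 with the array median or quantile normalization and 6 with normexp, while fraction 2 was highest under each scaling. The gap between fraction 3 (-2.02) and fraction 11 (-2.07) was within the residual SD of its curve (0.32). The array median moved the median of all probes, relative to the series, by -0.08 log2 in fraction 3 and 0.26 log2 in fraction 12. Fraction 12 of Ier2 then exceeded fraction 3.

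Counted by position, 7 of the 10 genes were highest in coronal fraction 8 or 9, against 15.9% of tested probes, and 9 were lowest in one of fractions 1 to 3, against 30.6%. For 8 of the 10 the gap between the highest and the next fraction was within the residual SD of the curve, and it exceeded it for Fos and Egr4, so a single peak fraction is not resolved for most members. In fractions 4 to 12 alone, a choice made after seeing the data that leaves 5 residual degrees of freedom in place of 8, 4 genes were called (Arc, Egr4, Fosb, Npas4), against 11.0% of probes.

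Along the horizontal axis, 9 of the 10 genes were highest in fraction 1 or 2 (31.6% of tested probes), which held the highest cerebral cortex markers, and 7 were lowest in fraction 6 (31.1%), where the hypothalamus markers were highest. By the same test 7 were called, Arc, Egr1, Egr2, Egr4, Junb, Npas4 and Nr4a1, where 15.8% of tested probes were. All 7 of these had a fitted curve highest in fraction 1 and lowest in fraction 6, as did 503 of the 5115 called probes (1.55% of all tested probes). The observed maximum was in fraction 1 for 8 genes (17.7% of probes). The median observed range was 2.09 log2, against 0.97 over all tested probes. With 6 arrays the fit leaves 3 residual degrees of freedom. Leaving out fraction 3 or fraction 4 left 0 of the 10 called, with 9 and 8 at an unadjusted p under 0.05, and 0 of all 32364 tested probes were called there. Leaving out fraction 5 gave 9, where 17.8% of probes were called. With 1 spline degree of freedom fewer, 0 of the 10 genes and 1 of the 32364 probes were called, with 9 genes at an unadjusted p under 0.05.

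Egr1 had horizontal levels of 4.67, 4.19, 3.80, 3.68, 3.38 and 2.31 in fractions 1 to 6, a 5.12-fold range (adjusted p = 0.0279). Egr2 was 0.18 in fraction 1 and -2.19 in fraction 6 with a median of -0.75, 5.16-fold (adjusted p = 0.0197). Egr4 was 3.76 in fraction 1 and 1.53 in fraction 6 with a median of 2.80, 4.71-fold (adjusted p = 0.0337). The 3 Egr genes thus each fell between fraction 1 and fraction 6, Egr1 and Egr2 at every step. Arc was highest in fraction 2 at 4.51, had 4.21 in fraction 1, a median of 3.82 and 2.14 in fraction 6, 5.17-fold (adjusted p = 0.0200). Nr4a1 fell from 4.46 to 2.51 with a median of 3.69, 3.85-fold (adjusted p = 0.0215). Arc and Nr4a1 both had their lowest level in fraction 6. Npas4 was 2.16 in fraction 1, 1.16 at the median and 0.39 in fraction 5, 3.41-fold (adjusted p = 0.0306). Junb was -1.95 in fraction 1, -2.89 at the median and -3.16 in fraction 5, 2.32-fold (adjusted p = 0.0281). Npas4 and Junb reached their lowest level in fraction 5, and fraction 6 lay close to it.

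Fos and Fosb were also highest in fraction 1 and lowest in fraction 6, with smaller ranges. Fos went from 0.57 (fraction 1) through a median of -0.02 to -0.60 (fraction 6), 2.24-fold, adjusted p = 0.0795. Fosb went from -0.18 through -0.84 to -1.35 over the same fractions, 2.25-fold, adjusted p = 0.0540. Neither passed the threshold. Ier2 had -0.17 in fraction 6 and -3.07 to -2.24 in the other 5 fractions, a 7.51-fold range set by 1 array (adjusted p = 0.297). For 9 of the 10 genes the highest horizontal fraction exceeded the next by more than the residual SD of the curve, the exception being Fos. Whether that fraction was 1 or 2 depended on the scaling. With arrays centred on their median, 0 of the 10 were highest in fraction 1 and 9 were highest in fraction 2. That scaling moved the median of all probes, relative to its series, by -0.33 log2 in fraction 1 and 0.30 log2 in fraction 2. It moves every probe of an array by the same amount, so these moves are not separate results for each gene. Under each of the 4 scalings tried, 9 genes were highest in fraction 1 or 2 and all 10 were lowest in fraction 5 or 6.

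Along the sagittal axis 3 of the 10 genes (Junb, Egr2 and Ier2) had an observed range above the median of all tested probes, 1.53 log2. Ier2 ran from -1.67 in fraction 1 to -3.28 in fraction 5, both well above background, and lower still in fraction 9, which was not. The median observed range of the 10 genes was 1.20 log2, and their median fitted range was 1.07 log2, against 1.06 over all tested probes. The test called 2 genes, Egr2 and Npas4, where 14.7% of tested probes were. At the 75th percentile scaling, 5 genes (Fosb, Egr2, Egr4, Arc, Npas4) were highest in fraction 10, against 5.88% of probes. Another 2 (Junb, Ier2) were highest in fraction 1, against 30.5%. Thus 7 were highest in an outermost fraction, against 36.4% of probes. The lowest level was in fraction 5 or 6, where hypothalamus and midbrain dopamine markers were highest, for 6 of the 10, against 20.9% of probes.

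Egr2 had a sagittal level of -1.73 at the lowest (fraction 5), -0.68 at the median and -0.06 at the highest (fraction 10), 3.19-fold, adjusted p = 0.0396. Npas4 had 0.33 at the lowest (fraction 6), 0.96 at the median and 1.58 at the highest (fraction 10), with 1.51 in fraction 1, 2.38-fold, adjusted p = 0.0317. Both were high at the 2 sides and low in the middle. Egr2 differed between the sides, with -0.40 and -0.58 in fractions 3 and 4 against -1.41 and -1.34 in fractions 8 and 7. Of the 10 genes, 9 were higher in fraction 3 than in 8 (median absolute difference 0.58 log2, against 0.39 over all probes). The median signed difference over all probes was -0.03 log2 there. In fraction 2 against 9, 9 were higher (all probes 0.36), in fraction 4 against 7, 8 were (0.002), and in fraction 1 against 10, 2 were (0.09). Each of these pairs, also those of Egr2, set 1 slide against another, so side and slide cannot be told apart. Junb spanned 4.70-fold, from -4.10 in fraction 5 to -1.87 in fraction 1 with a median of -2.80, without passing the test (adjusted p = 0.214), and was not well above background in fraction 9. Egr4 ranged from 2.36 (fraction 6) to 3.70 (fraction 10) around a median of 2.79 (adjusted p = 0.0805). Egr1, highest in fraction 3 at 4.41 and lowest in fraction 1 at 3.26 around a median of 3.69, was the member for which the 2 outermost fractions differed most, since fraction 10 stood at 4.30. Fos was also lowest in fraction 1 (-0.56), with a median of 0.01 and 0.26 in fraction 4. Fosb, Arc and Nr4a1 had ranges of 2.06-fold, 1.97-fold and 1.95-fold. Ier2 was highest in fraction 1 at -1.67, had a median of -2.30 and, among fractions well above background, was lowest in fraction 5 at -3.28. In fraction 9 it was not well above background, and against the bound there the range was at least 2.56-fold. None of these 8 genes passed the test (adjusted p from 0.0805 to 0.579). The 2 calls changed with single arrays, the scaling and the slide. Sagittal fractions 1 to 4 and fractions 5 to 10 were on different slides, so the low fractions 5 and 6 begin at a slide boundary. With slide as an added term 1 gene was called, Egr2 (7.79% of probes), and in fractions 5 to 10 alone 0 (0 of all tested probes), with 1 gene at an unadjusted p under 0.05. Leaving out 1 fraction at a time gave 0 to 4 called genes, 0 without fraction 1, 2, 3, 4 or 6 (with 3 to 5 genes at an unadjusted p under 0.05), where 0 to 8.62% of probes were called, and centring arrays on their median gave 0 (1.04% of probes). That scaling moved the median of all probes in fraction 9 by -1.16 log2 relative to its series and put the lowest level of all 10 genes there, with 1 gene left highest in fraction 1 or 10. The shift is the same for every probe of the array, so these positions are not separate results for each gene.

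**Figure D2:**
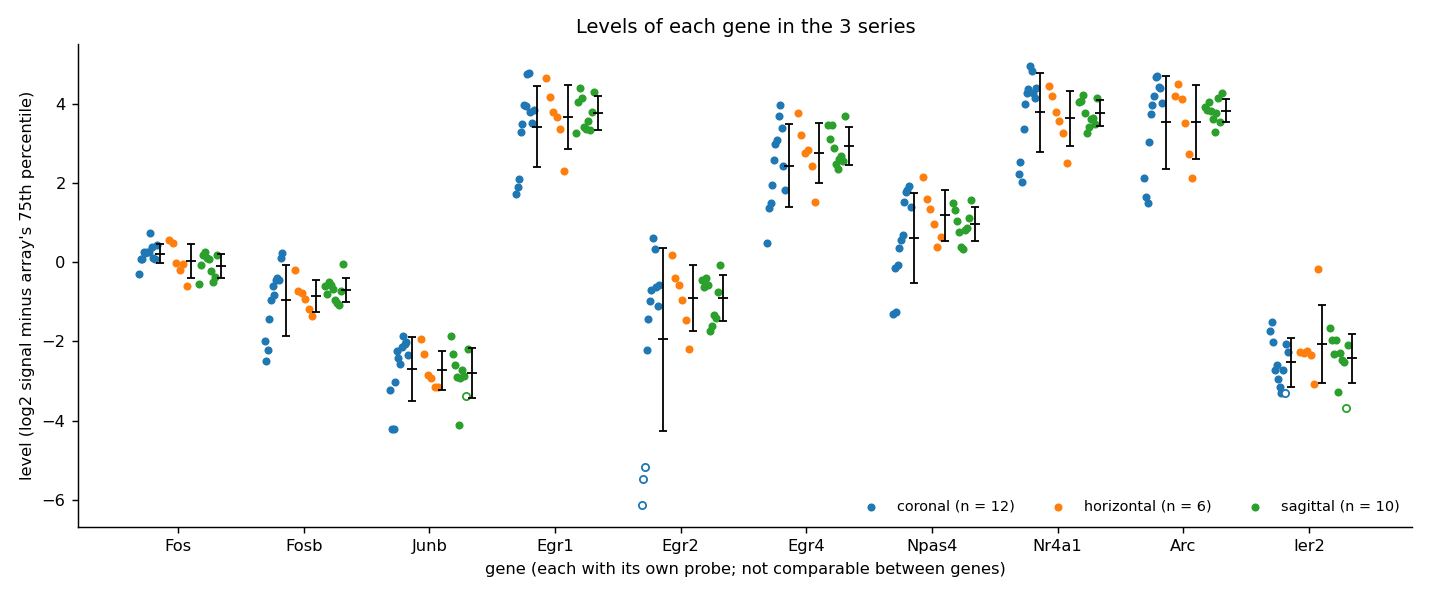
Level of each gene (log2 signal minus the array's 75th percentile) in every fraction of the 3 series, 1 point per array, with the mean and SD over fractions in black; open points were not well above background. The series overlap for every gene, and the coronal fractions of Egr2 reach furthest down.

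Setting the whole series against each other asks whether the genes stood at another overall level in 1 of the 3 brains. In the limma fit over the 28 arrays, 0 of the 10 genes differed between the series by the F-test, with 0 at an unadjusted p under 0.05, where 1.63% of tested probes were called. The pairwise contrasts called 0 of the 10 as well, where horizontal minus coronal called 3.47% of probes, sagittal minus coronal 0.139% and sagittal minus horizontal 0.0154%. The largest differences were those of Egr2, whose mean was -1.95 ± 2.32 (SD, n = 12) in the coronal, -0.90 ± 0.84 (SD, n = 6) in the horizontal and -0.90 ± 0.58 (SD, n = 10) in the sagittal series. Horizontal minus coronal was 1.05 for Egr2, with a 95% interval of -0.54 to 2.64, and both rest in part on the 3 coronal fractions in which Egr2 was not well above background. The series overlapped, and the interval allows sizeable differences in both directions. Fos was the 1 gene with an unadjusted p under 0.05 in a contrast, sagittal minus coronal, at -0.31 (95% interval -0.59 to -0.02, adjusted p = 0.362). These means are over different parts of the brain per fraction. With slide as an added term the F-test called 2 genes, Egr2 and Fosb (5.97% of probes), and sagittal minus horizontal called the same 2 (2.36%). No slide held both the sagittal and the horizontal series. Their contrast then rests on coronal fractions 1, 2, 11 and 12, which share slides with them. With that term Egr2 was also called in horizontal minus coronal (4.90 log2, adjusted p = 0.00841, 0.964% of probes), a value that rests on coronal fractions 1 and 2, which share a slide with the horizontal series. In those 2 fractions Egr2 was not well above background.

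The agreement among members was described by Pearson's r between the levels of 2 genes over the fractions of a series, without a p, since neighbouring fractions share tissue boundaries and all genes of a fraction share an array. Over the 12 coronal fractions the median r of the 45 pairs was 0.84, and 0.88 for the 36 pairs without Ier2, against 0.004 over all pairs of tested probes. Over the 6 horizontal fractions it was 0.89, and 0.91 without Ier2, against 0.006. Over the 10 sagittal fractions it was 0.59, and 0.64 without Ier2, against 0.041. Restricted to coronal fractions 4 to 12 the median was 0.62, so part of the coronal agreement came from the low first 3 fractions. Centring arrays on their median raised the sagittal value to 0.84, and quantile normalization lowered it to 0.43.

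**Figure D3:**
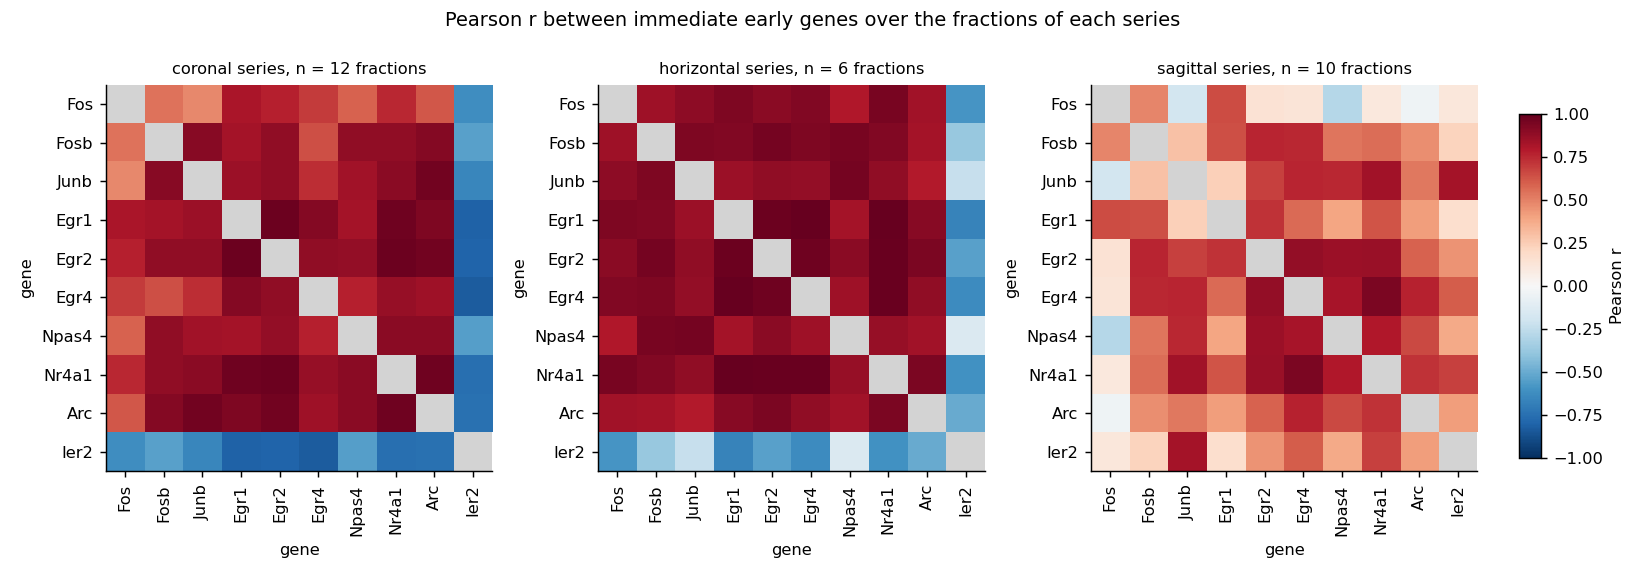
Pearson r between each pair of genes over the fractions of a series (colour scale from -1 to 1; rows and columns are genes; the diagonal is left grey). The 9 genes other than Ier2 form a positive block in the coronal and horizontal series, Ier2 is negative against all of them there, and Fos is weakest in the sagittal series.

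In coronal fractions 4 to 12, where Egr2 was well above background throughout, the closest pair was Egr2 and Nr4a1 (r = 0.98, Spearman rho = 0.98). The closest horizontal pair was Egr1 and Egr4 (r = 0.995, rho = 0.94). In the sagittal series it was Egr4 and Nr4a1 (r = 0.94, rho = 0.93). Nr4a1 was the gene nearest to the mean of the other members in the coronal (r = 0.99) and sagittal series (r = 0.95). Egr2 was nearest in the horizontal series (r = 0.96). Fos agreed less with the other 8, with a median r of 0.66 in the coronal and 0.12 in the sagittal series, but 0.90 in the horizontal series. All 9 pairs with Ier2 were negative in the coronal series (r from -0.83 to -0.54, median -0.75). In coronal fractions 4 to 12 their median r was -0.30 and 3 of the 9 were positive (Fosb, Junb, Npas4). All 9 were negative in the horizontal series as well (r from -0.67 to -0.15), where the rank correlation had a median of -0.03. In the sagittal series all 9 were positive (r from 0.11 to 0.83).

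Marker lists moved with these profiles, and their part in the results was not tested. The mean of the 6 cerebral cortex markers (Tbr1, Cux2, Rorb, Fezf2, Lamp5, Neurod6) correlated with the mean of the 10 members at r = 0.83 in the coronal, 0.96 in the horizontal and 0.85 in the sagittal series. It ranged from -1.57 to 1.87 over the coronal fractions, and 5 of the 6 markers were well above background in fractions 1, 2 and 3. In coronal fraction 12 the cortex markers stood at -0.95 relative to their series mean, while the 9 members without Ier2 averaged 0.54 above theirs. The 7 striatum markers gave r = 0.75, -0.78 and 0.11, and the 5 cerebellum markers -0.96, -0.23 and -0.36. The 5 tested hippocampus markers gave r = 0.26, -0.21 and -0.06. The 5 microglia markers, all well above background in every fraction, gave r = 0.76, 0.97 and 0.56 over a narrower range of mean level (2.32 to 3.97 in the coronal series). The 3 blood markers gave r = -0.44, 0.95 and 0.14, and the 4 neuron markers -0.24, 0.52 and -0.09. The 4 astrocyte markers gave r = -0.88, -0.56 and -0.11, and the 4 oligodendrocyte markers -0.68, -0.79 and -0.36, negative in each series. The oligodendrocyte list stood at -2.19 log2 relative to its series mean in horizontal fraction 1, where 8 members were highest. Taken singly, the 9 members without Ier2 had a coronal r of -0.98 (Egr4) to -0.66 (Fosb) with the astrocyte list and a horizontal r of -0.89 (Junb) to -0.50 (Arc) with the oligodendrocyte list. In the sagittal series some were positive, Fos (0.53) and Egr1 (0.23) with the oligodendrocyte list and Fos (0.17), Arc (0.10) and Junb (0.04) with the astrocyte list. For Ier2 the coronal r was -0.89 with the cortex list and 0.84 with the astrocyte list. The 3 meningeal markers, highest in sagittal fractions 1 and 10, had a sagittal r of -0.28 (Fos) to 0.81 (Junb) with single members. For the 4 olfactory bulb markers the sagittal r was -0.82 (Egr2) to 0.10 (Fos).

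**Figure D4:**
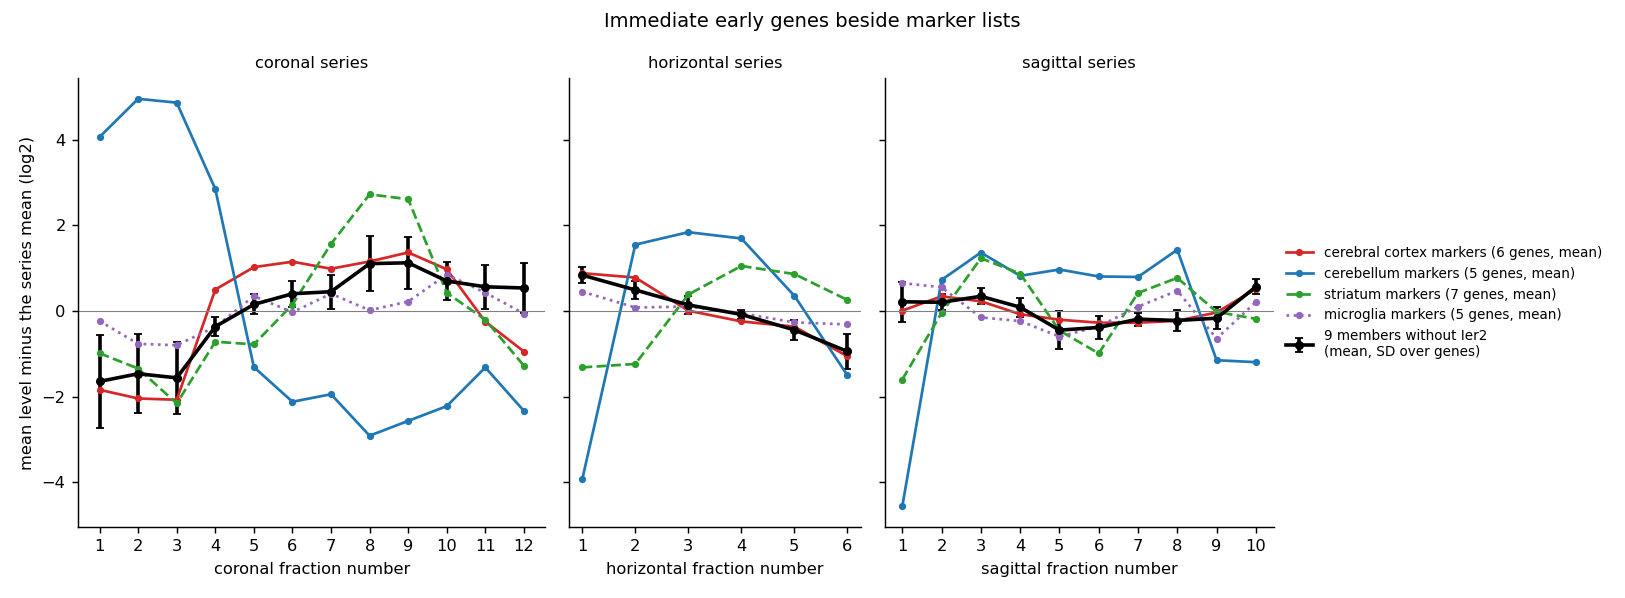
Mean level minus the series mean (log2, vertical axis) by fraction number for the 9 members without Ier2 (black, bars are the SD over genes) and for the markers of cerebral cortex, cerebellum, striatum and microglia. The members run close to the cortex and microglia markers in the horizontal series and opposite to the cerebellum markers in the coronal series.

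Other genes of the pathway were counted from 3 lists. Of 22 tested other immediate early genes, 13 changed along the coronal, 9 along the horizontal and 0 along the sagittal axis, where 33.7%, 15.8% and 14.7% of all tested probes did. The median fitted coronal range was 0.93 log2, against 0.90 over all tested probes and 2.77 for the 10 members. Of the 13, 5 had their fitted maximum in fraction 1, where 9.26% of all tested probes were called with one there. The other 8 had it after the first 3 fractions, where 23.6% of all tested probes were called with one. Fosl2, an AP-1 subunit, had its coronal maximum in fraction 12 (2.09) and minimum in fraction 1 (-0.34), with an adjusted p of 0.00270. Ptgs2, the inducible cyclooxygenase, peaked in fraction 8 at -2.09 (adjusted p = 0.00465). Trib1, a pseudokinase, was highest in fraction 12 at 2.19 and lowest in fraction 7 at 0.50 (adjusted p = 0.00500). Dusp5, a protein phosphatase, ran like Ier2, highest in fraction 2 at -0.54 and lowest in fraction 8, where it was not well above background (adjusted p = 0.00676). The mean profile of this list had r = 0.06 with that of the members in the coronal, 0.87 in the horizontal and 0.60 in the sagittal series.

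Of 12 activity-regulated effector genes, 10 changed along the coronal axis (33.7% of probes), all 10 with a fitted maximum after the first 3 fractions (23.6% of probes were called with one there). Along the horizontal axis 4 changed (15.8% of probes) and along the sagittal axis 3 (14.7%). The list had a median fitted coronal range of 1.72 log2. Rasgrp1, a Ras exchange factor, went from 0.76 (fraction 1) to 4.97 (fraction 8), adjusted p = 0.000462. Plk2, a kinase of synaptic scaling, went from -0.84 to 2.33 over the same fractions (adjusted p = 0.000710). Homer1, a postsynaptic scaffold, went from 0.35 to 2.95 there as well (adjusted p = 0.00254). Inhba, the activin A subunit, was highest in fraction 12 at 1.67 and lowest in fraction 4 at -1.33 (adjusted p = 0.00223). Of 14 upstream regulators, 6 changed along the coronal, 5 along the horizontal and 2 along the sagittal axis, where 33.7%, 15.8% and 14.7% of probes did, so the sagittal share was at the background. The list had a median fitted coronal range of 0.88 log2, against 0.90 over all tested probes. Mef2c, a neuronal transcription factor, rose from -3.09 (fraction 1) to 0.73 (fraction 9), adjusted p = 0.000860. Camk2a, the calcium-dependent kinase of forebrain neurons, went from -0.33 (fraction 3) to 4.52 (fraction 10), adjusted p = 0.00461. Srf, which binds CArG boxes, went from 1.17 (fraction 3) to 2.69 (fraction 9), adjusted p = 0.0115. Mrtfa, a coactivator of Srf, went from 2.38 to 4.17 over the same fractions (adjusted p = 0.0156). Camk4, also among the 6 called, ran the other way, from 5.61 in fraction 3 to 2.54 in fraction 12 (adjusted p = 0.0470).

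Among 12288 other symbols well above background on all 28 arrays, the profiles most like the mean of the members, over 28 fractions centred within each series, were those of Dusp14 (r = 0.97), Zdhhc8 (0.96), Sipa1l1 (0.96), Grasp (0.96) and Kcnh3 (0.96). The median r over all candidates was 0.05 and 175 exceeded 0.85. All 5 were highest in coronal fraction 9 and horizontal fraction 1, as was the mean of the members by which they were chosen. In the sagittal series their r was 0.81 to 0.92. Dusp14 was highest there in fraction 10, as the mean of the members was, Sipa1l1 in fraction 2, and Zdhhc8, Grasp and Kcnh3 in fraction 1. Kcnh3 had the widest coronal range of them, 4.91 log2, and Dusp14 the narrowest, 2.17 log2.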

How the data were processed

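Cy3-labelled RNA of every fraction was measured on a 1-colour Agilent array. The deposited array files hold intensity values from Agilent Feature Extraction 10.5.1.1, which per the file headers subtracts background. A table of log2 values for 44721 probes, also deposited by the authors, matched the scaling used here up to a constant of 0.00111 to 0.00758 on each array. Outlier spots were dropped, the remaining spots of a probe averaged, and the array's 75th percentile subtracted after taking log2. The flag for a signal well above background had to be set in 0.5 or more of a probe's spots. Of 32426 probes well above background in each series, 62 with no spot left on some array were dropped and 32364 were tested. Names came from a RefSeq table of GRCm38.p6 matched by transcript accession (27235 of 55681 probes, 48.9%).

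Position trends were natural splines of fraction number with 3 degrees of freedom (2 in the horizontal series), fitted with limma 3.58.1 in R 4.3.3 with moderated variances. Series were compared in 1 limma fit over the 28 arrays. P-values were Benjamini-Hochberg adjusted over all tested probes, with a threshold of 0.05. As fractions are single samples of different tissue, the trend p-values set the departure of the curve from a constant level against the scatter about the curve, and the series p-values set differences against the spread over positions, neither against variation between animals. The script was tested on simulated data. The number of arrays limits the precision. Folds against a fraction not well above background use the higher of the probe's level and the lowest signal well above background on that array. Correlations used NumPy 2.4.6. All 10 genes, 3 gene lists, region and cell type markers, and the 5 profiles most like the members were named. From each list up to 4 genes were named by smallest coronal adjusted p, and Camk4 for its opposite direction. The members and lists were chosen with earlier results of these data known. Fraction numbers do not pair the series: 7 of 28 arrays were closest to an array of their own number. Alternatives were other scalings, background corrections, filters, spline degrees, slide terms and left-out fractions. The results of 2 list genes are not reported here, and the lists were computed without them.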

Additional observations from a re-analysis of the deposited data

Results flagged for a closer look

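In the horizontal series Ier2 was highest in fraction 6 at a level of -0.17, and the gap to the next fraction (-2.24) took a share of 0.715 of its whole range over 6 fractions, above the limit of 0.625 used for 6 samples. The same question was asked of 22 sets, the 10 genes and their mean in the horizontal and in the sagittal series, and chance flags about 1 in 20 such sets.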

How the results depend on the processing

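The coronal count of 9 called genes was 9 under the other scalings, background correction and spline degree and without a filter (31.2% to 39.3% of probes, against 33.7%). It was 7 of 8 tested where a signal well above background was required on every array (45.2% of probes), as Egr2 and Ier2 were then not tested. With 1 fraction left out it was 8 to 9 (24.5% to 34.4%). In fractions 4 to 12 it was 4 (11.0%), and with slide as an added term 2 (0.745%). The horizontal count of 7 was 7 to 9 under the other scalings, background correction and filters (13.3% to 59.8% of all probes), 0 with 1 spline degree of freedom fewer (9 genes at an unadjusted p under 0.05; 1 of 32364 probes called) and 0 to 9 with 1 fraction left out (0 to 17.8% of all probes). The sagittal count of 2 was 0 with the array median (1.04% of probes, and 0 genes at an unadjusted p under 0.05). In fractions 5 to 10 on 1 slide it was 0 (0 of all probes, and 1 gene at an unadjusted p under 0.05). Without fractions 1 and 9 it was 0 (2.90%, and 6 genes at an unadjusted p under 0.05). It was 1 with 1 spline degree of freedom fewer (12.7%), 1 with quantile normalization (8.12%) and 1 with slide as an added term (7.79%). The count was 5 with normexp (44.2% of all probes, against 14.7%) and 0 to 4 with 1 fraction left out (0 to 47.1% of probes). The subsets of fractions 4 to 12 and without fractions 1 and 9 were chosen after seeing the data. The F-test over the series called 0 genes (1.63% of probes), and 2 (Egr2, Fosb) with slide as an added term (5.97%). With that term horizontal minus coronal called 1 gene (0.964%) and sagittal minus horizontal 2 (2.36%). Within the slide of coronal fractions 1 and 2 and the horizontal series 1 gene was called (1.67%). There the horizontal series was set against only the coronal fractions with the highest hindbrain and cerebellum markers, so animal and tissue cannot be told apart. The Egr2 difference sagittal minus coronal (1.05) turned to -0.31 with slide as an added term and within the slide shared by coronal fractions 11 and 12 and sagittal fractions 5 to 10. With 1 fraction left out the series counts stayed at 0. With the fraction number as a replicate block, 0 genes were called in the F-test and in each contrast, and since the numbers do not pair the samples this block bears on no call. With the array median, 0 genes were highest in horizontal fraction 1 and 1 in sagittal fraction 1 or 10. The median r was 0.83 to 0.87 in the coronal, 0.85 to 0.93 in the horizontal and 0.44 to 0.66 in the sagittal series with 1 fraction left out, 0.62 in coronal fractions 4 to 12, 0.84 with the array median and 0.43 with quantile normalization in the sagittal series. The cause of these shifts was not tested. The mean over several probes of a gene was not run, as each gene had 1. Signal over background limits Egr2 in coronal fractions 1 to 3, Ier2 in coronal fraction 10 and sagittal fraction 9, and Junb in sagittal fraction 9.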
